A study of Oryza sativa with 11 samples.

Results

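Named BURP domain genes of rice were described array by array in root tips grown with and without salt. The members were all genes whose symbol or synonym in the RefSeq annotation begins with BURP or OsBURP followed by a number, and the annotation named 9 such genes. A probe set on the array named 7 of them, BURP2, BURP3, BURP10, BURP12, BURP13, BURP16 and BURP17, out of 17905 genes with a probe set. BURP4 and BURP14 had no probe set naming them and were not analysed here. Genes of the family that the annotation does not name in this way were not looked for. A limit of 10 members by mean signal was not reached, so none of the 7 was left out. BURP10 and BURP2 were chosen by their salt changes in these same arrays. Their salt changes, and how those differ between the genotypes, are therefore given as a description with no test. The other 5 were taken in by name alone.

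The BURP domain is a plant-specific stretch near the end of secreted proteins that carries conserved cysteine and histidine residues. The family's name joins its founding members, which include the beta subunit that anchors a pectin-cutting polygalacturonase in the tomato cell wall and a dehydration-responsive protein of Arabidopsis. In rice BURP13, with the synonym RAFTIN1, is known for its role in anthers, and BURP16 is known as a relative of the polygalacturonase beta subunit.

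RNA came from the last 2 cm of the roots of 30-day-old plants and was hybridised to 11 Affymetrix rice arrays, 1 per biological replicate. FL478, a salt-tolerant recombinant inbred line, gave 3 salt and 3 control arrays, and salt-sensitive IR29 gave 3 salt and 2 control arrays. Salt-treated plants were brought over 3 days to an electrical conductivity of 7.4 dS/m, about 60 mM NaCl with added calcium, and kept there for 5 days, against 1.1 dS/m for control plants. The sample labels speak of hydroponic culture and the study's methods of sand tanks. Values are linear signals in intensity units, scaled so that each array has a 2% trimmed mean of 500.1, and changes are differences of log2(signal + 32). An offset of 32 shrinks the change of a dim probe set, and 36.6% to 41.9% of the 57258 probe sets on an array lay under 32 units. The 3 root markers OsWOX9, OsSHR1 and OsSCR1, which act in the quiescent centre and in radial patterning of roots, were all measured, at 94.2 to 511.5 units on all 11 arrays. Of the 3 shoot markers measured, the chlorophyll-binding gene CAB2R ran from 88.0 to 519.5 units and the small Rubisco subunit genes OsrbcS and RBCS1 from 107.6 to 241.1 and from 1.70 to 13.5. Summed shoot marker signals ran from 291 to 388 in FL478 salt arrays and 326 to 730 in FL478 control arrays, and from 203 to 422 in IR29 salt arrays and 263 to 317 in IR29 control arrays. None of the root, shoot or dividing cell markers passed the test in any comparison, where a call means a Benjamini-Hochberg adjusted p under 0.10 in limma.

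The 7 genes fell into bright, middling and dim signals, although a signal also depends on the probes and does not rank the genes by transcript number. BURP2 averaged 4358 units over the 11 arrays, BURP16 2825, BURP10 837 and BURP12 297. BURP3 averaged 28.9 units, BURP13 27.3 and BURP17 5.10. BURP17 lay under 32 units on all 11 arrays, BURP3 on 6 and BURP13 on 5, so these genes had little room to fall on the scale used. A rise to well above 32 units would still show. Among the brighter genes, BURP2 ran from 28.5 to 16000.8 units over the arrays and BURP10 from 5.7 to 2020.7, both with a lowest value under 32 units. The highest signal was 2.98-fold the lowest for BURP16 and 1.91-fold for BURP12.

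**Figure D1:**
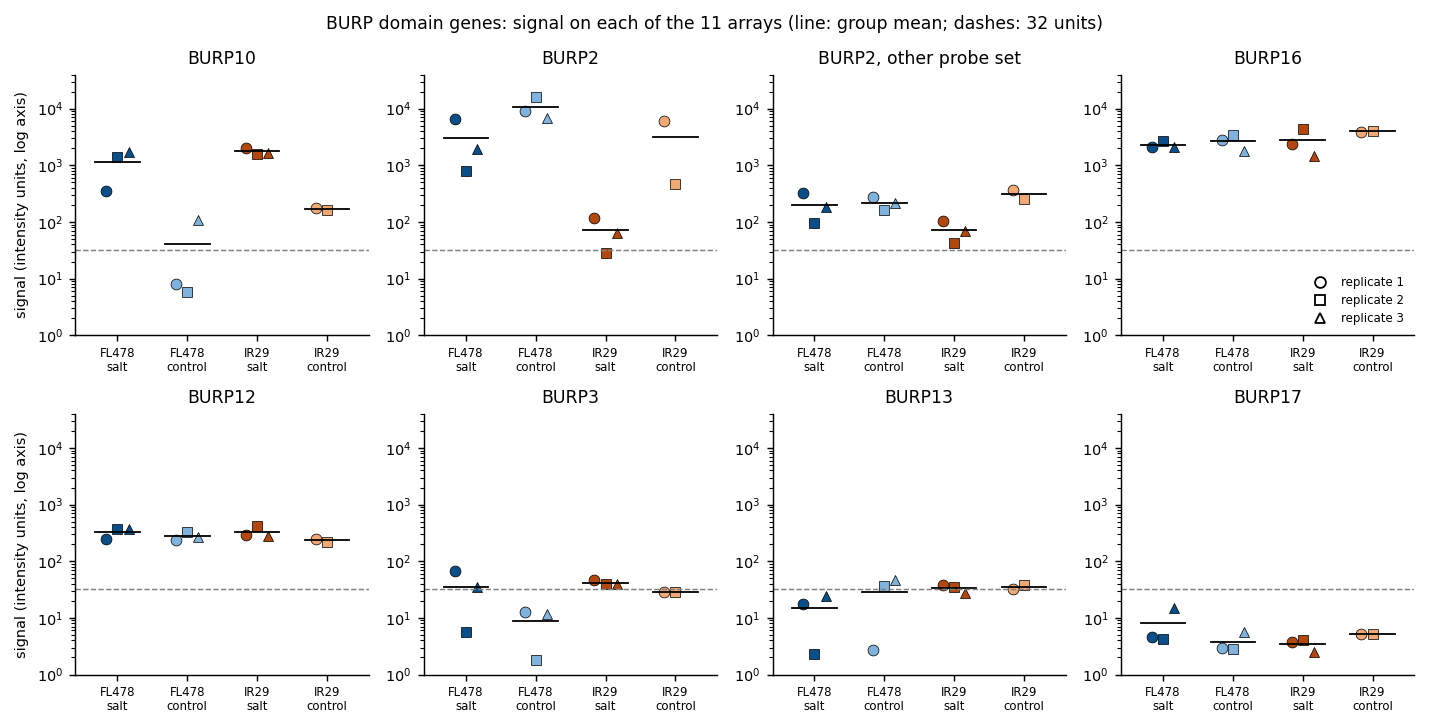
Signal of each BURP probe set on each of the 11 arrays, in intensity units on a log axis, by genotype and treatment. Each point is 1 array with its shape giving the replicate number, lines are group means, and dashes mark 32 units. BURP10 salt arrays sit above their control arrays in both genotypes and BURP2 salt arrays below, while BURP16 and BURP12 keep within 2.98-fold over all arrays.

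BURP10 was the member with the highest rise under salt, and BURP2 the one with the deepest fall. BURP10 (RefSeq LOC4340763), placed by the study's tables at LOC_Os06g17000 on chromosome 6, gave 356.7, 1375.5 and 1745.3 units in FL478 salt arrays, against 7.9, 5.7 and 109.2 in FL478 control arrays. In IR29 it gave 2020.7, 1572.7 and 1674.3 units in salt arrays, against 173.4 and 161.8 in control arrays. Every salt array was above every control array, across genotypes as well as within them, and the lowest salt array was the first of FL478. Group means were 1159 ± 719 units in FL478 salt and 40.9 ± 59.1 in FL478 control (SD, n = 3 each), and 1756 ± 235 in IR29 salt (SD, n = 3) and 168 ± 8.20 in IR29 control (SD, n = 2). In these bulk samples a change in the share of cells of a type and a change in RNA per cell cannot be told apart, for this gene or the others.

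On the log2 scale BURP10 was higher under salt by 4.05 ± 0.60 in FL478 and by 3.16 ± 0.67 in IR29 (± SE). Both were the highest of all 57258 probe sets in their genotype. The FL478 change rests on a dim reference, since 2 of its 3 control arrays were under 32 units, while both IR29 control arrays were well above. The change in FL478 minus that in IR29 was 0.90 ± 0.90 (± SE).

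BURP2 went the other way. BURP2 (RefSeq LOC4338119), read by the brighter of its 2 probe sets and placed by the study's tables at LOC_Os05g12640 on chromosome 5, gave 6503.0, 792.2 and 1924.6 units in FL478 salt arrays, against 9150.5, 16000.8 and 6935.6 in FL478 control arrays. In IR29 it gave 119.1, 28.5 and 64.4 units in salt arrays, against 5951.0 and 466.6 in control arrays. All salt arrays were below all control arrays of their own genotype, but by unequal margins. The first FL478 salt array stood just under the lowest FL478 control array, and in IR29 the gap rested on 2 control arrays that were themselves 12.8-fold apart. Group means were 3073 ± 3024 units in FL478 salt and 10696 ± 4726 in FL478 control (SD, n = 3 each), and 70.7 ± 45.6 in IR29 salt (SD, n = 3) and 3209 ± 3878 in IR29 control (SD, n = 2).

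The log2 change of BURP2 came to -2.20 ± 0.92 in FL478 and -4.17 ± 1.03 in IR29 (± SE). It was the lowest of 57258 probe sets in IR29 and the 53rd lowest in FL478. The change in FL478 minus that in IR29 was 1.97 ± 1.38 (± SE). The IR29 value depended on the control arrays, at -5.96 without the second and -2.38 without the first, and the difference between genotypes then became 3.76 and 0.18.

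**Figure D2:**
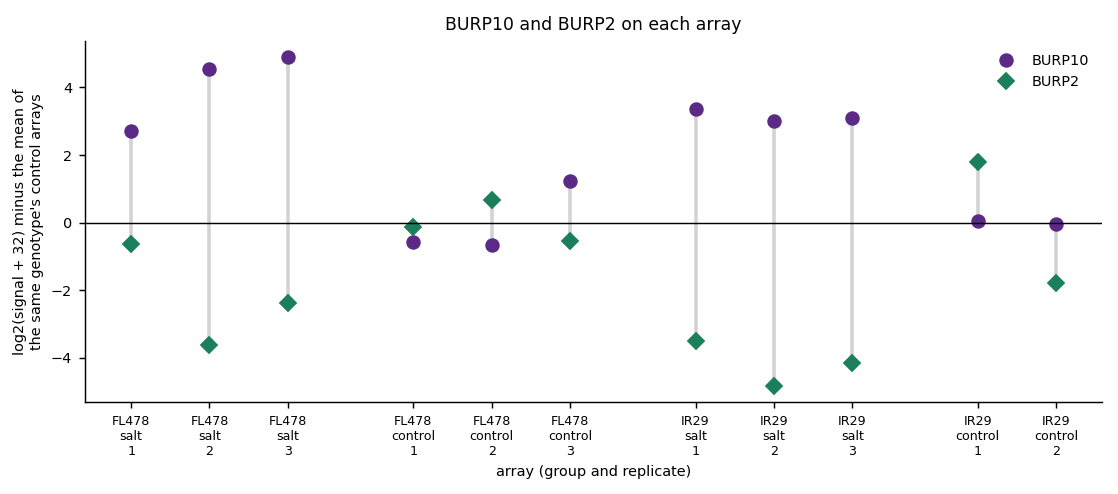
BURP10 (circles) and BURP2 (diamonds, brighter probe set) on each array, as log2(signal + 32) minus the mean of the control arrays of the same genotype. On the 6 salt arrays BURP10 lies 2.70 to 4.90 above that mean and BURP2 0.63 to 4.84 below it, and the IR29 control arrays of BURP2 lie 1.79 to either side.

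Read array by array, the pair moved apart on each of the 6 salt arrays. In FL478 the deviation of BURP10 from the control mean was 2.70, 4.56 and 4.90 on the log2 scale in salt arrays 1, 2 and 3, and that of BURP2 was -0.63, -3.61 and -2.37. The first array had the smallest change of both genes, whereas the array with the largest rise of BURP10 was not the one with the deepest fall of BURP2. Within FL478 pairs of the same replicate number the differences were 3.28, 5.22 and 3.65 for BURP10. Those of BURP2 were -0.49, -4.28 and -1.83, so pair 2 had the largest change of both genes. The first FL478 salt array also had the lowest median signal of all 11 arrays (48.8 units) and the largest share of probe sets under 32 units (41.9%). Its GAPDH 3'/5' ratio was the highest of the FL478 arrays (0.92 on the log2 scale, described further on). For probe sets other than the members, called for salt in FL478, the median log2 change was taken in the called direction. It was 1.44, 1.46 and 1.55 on salt arrays 1, 2 and 3. They were called from these same arrays, and a call favours probe sets with little spread within a group. Evenness over the arrays was thus partly set by the choice, and nothing is read from it about array 1. The part of the median signal, the share under 32 units and the GAPDH ratio in the smaller changes of BURP10 and BURP2 was not tested. In IR29 the deviation of BURP10 was 3.36, 3.01 and 3.10, and that of BURP2 was -3.51, -4.84 and -4.16. There the first array had the largest rise and the smallest fall.

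Pooled over all groups, both genes also differed among arrays of the same group more than most probe sets did. The residual SD of the fit was 1.34 on the log2 scale for BURP2, rank 95 of 57258 from the largest, and 0.86 for BURP10, rank 781, against a median of 0.33. For BURP10 the spread lay in FL478, with a log2 SD of 1.18 in salt and 1.08 in control arrays. In IR29 the SD of BURP10 was 0.18 in salt and 0.06 in control arrays. The shared fit thus gave its IR29 change an SE of 0.67, against 0.19 with only the compared groups fitted. For BURP16, BURP12, BURP3, BURP13 and BURP17 the residual SD ran from 0.12 to 0.50. The gap between the first and second IR29 control arrays was 3.58 for BURP2, the 34th largest of all probe sets, and 0.08 for BURP10.

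The share of probe sets that separate as these 2 genes did gives the background. Salt arrays lay above control arrays in both genotypes for 1.63% of all probe sets and below in both for 1.57%. Nothing is read from these shares about BURP10 and BURP2, which were picked for this contrast. GAPDH is read by probe sets at both ends of its transcript, and the ratio of the 3' over the 5' signal, a sign of RNA quality, was also higher on each salt array than on the control arrays of its genotype. On the log2 scale it ran from 0.65 to 0.92 in FL478 salt and 0.51 to 0.62 in FL478 control, and from 0.71 to 1.03 in IR29 salt and 0.65 to 0.66 in IR29 control. With this ratio as a covariate the change of BURP10 was 4.90 ± 0.635 in FL478 and 4.15 ± 0.72 in IR29 (± SE). That of BURP2 was -2.96 ± 1.14 and -5.06 ± 1.30. Since the ratio separates salt from control arrays within each genotype, the covariate cannot tell RNA quality and salt apart.

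A dimmer probe set also names BURP2 and is of a class, marked x in the array's design, that can pick up related transcripts. It gave 318.5, 94.0 and 184.1 units in FL478 salt arrays, against 277.4, 161.4 and 216.7 in FL478 control arrays. In IR29 it gave 104.5, 42.5 and 68.0 units in salt arrays, against 359.5 and 257.7 in control arrays. The groups overlapped in FL478 and stood apart in IR29, where all salt arrays were lower. Its log2 change stood at -0.21 ± 0.37 for FL478 and -1.74 ± 0.41 in IR29 (± SE). The difference between these changes, FL478 minus IR29, was 1.53 ± 0.55 (± SE). Without the second FL478 salt array the FL478 change was 0.16. The IR29 salt arrays were thus lower on both BURP2 probe sets, and the FL478 salt arrays stood below their control arrays without overlap on the brighter one alone. The wide gap between the IR29 control arrays was 3.58 on the brighter set and 0.43 on the dimmer one.

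**Figure D3:**
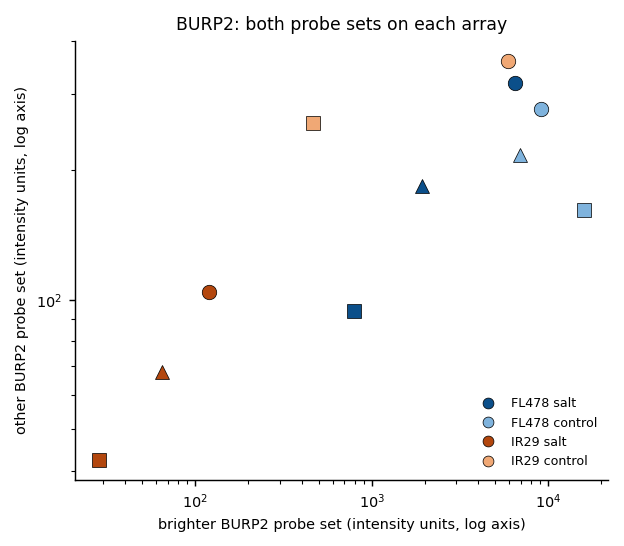
Signals of the 2 probe sets that name BURP2, each point being 1 array, both axes in intensity units on a log scale. The 3 IR29 salt arrays lie at the lower left at 28.5 to 119.1 units on the brighter set, and the IR29 control arrays differ far more along the brighter set (466.6 and 5951.0 units) than along the other (257.7 and 359.5 units).

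None of the 5 other members passed the test for salt. In FL478 0 of 5 were called, where 0.169% of all probe sets were, and 3 were higher and 2 lower with a median log2 change of 0.15, against 0.00 over all probe sets. In IR29 0 of 5 were called, where 0.00524% of all probe sets were, and 2 were higher and 3 lower with a median of -0.02. Averaged over both genotypes 0 of 5 were called, where 0.547% of all probe sets were. The interaction test of the genotypes' salt changes called 0 of the 5 (adjusted p = 1.00, limma) and 0% of all probe sets, and at an unadjusted p under 0.05 it took 0 of the 5 and 4.53% of all. At an unadjusted p under 0.05 the salt tests also took 0 of the 5, against 8.97% of all probe sets in FL478, 6.18% in IR29 and 10.3% averaged.

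BURP16, the relative of the polygalacturonase beta subunit, was bright everywhere. It gave 2096.8, 2641.4 and 2100.8 units in FL478 salt arrays, against 2839.4, 3430.6 and 1759.2 in FL478 control arrays. In IR29 it gave 2414.7, 4353.2 and 1459.6 units in salt arrays, against 3876.2 and 4105.3 in control arrays. Salt and control arrays overlapped in both genotypes. Its log2 change was -0.18 ± 0.36 in FL478 (± SE, adjusted p = 0.940, limma) and -0.67 ± 0.41 in IR29 (adjusted p = 0.900), with 95% intervals of -0.996 to 0.63 and -1.58 to 0.23. Leaving out 1 array moved the BURP16 value to between -0.46 and 0.02 in FL478, positive only without FL478 control array 2, and to between -1.07 and -0.30 in IR29. With the GAPDH ratio as a covariate it was -0.70 in FL478 and -1.28 in IR29.

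BURP12 was the steadiest of the members above 32 units. It gave 244.2, 367.1 and 371.2 units in FL478 salt arrays, against 240.1, 324.6 and 270.5 in FL478 control arrays, and its groups overlapped there. In IR29 it gave 286.5, 415.2 and 279.0 units in salt arrays, against 251.4 and 216.9 in control arrays, all salt arrays being higher. Its log2 change was 0.20 ± 0.21 in FL478 (± SE, adjusted p = 0.852, limma) and 0.41 ± 0.24 in IR29 (adjusted p = 0.895). The 95% intervals ran from -0.28 to 0.67 and from -0.12 to 0.95.

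The offset limits what can be read from the dim members. BURP3 gave 66.5, 5.6 and 35.3 units in FL478 salt arrays, against 12.8, 1.8 and 11.6 in FL478 control arrays, and its groups overlapped. Its IR29 signals were 47.1, 39.8 and 39.5 units in salt arrays, against 28.9 and 28.7 in control arrays, with all salt arrays higher. Its log2 change was 0.64 ± 0.30 in FL478 (± SE, adjusted p = 0.572, limma) and 0.28 ± 0.33 in IR29 (adjusted p = 0.981). The FL478 value was 0.32 without FL478 salt array 1 and 1.01 without FL478 salt array 2, and with the GAPDH ratio as a covariate BURP3 stood at 0.29 in FL478 and -0.12 in IR29. Within FL478 the second array was the lowest of its group under salt and in control alike.

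BURP13, the RAFTIN1 gene of anthers, gave 17.3, 2.3 and 24.7 units in FL478 salt arrays, against 2.7, 35.9 and 46.3 in FL478 control arrays. IR29 gave 38.6, 35.5 and 27.8 units in salt arrays, against 32.2 and 37.5 in control arrays. The groups overlapped in both genotypes, with log2 changes of -0.31 ± 0.30 in FL478 (± SE, adjusted p = 0.824, limma) and -0.02 ± 0.33 in IR29 (adjusted p = 1.00). The sign in IR29 depended on the setting, keeping in 14 of 18 alternatives. BURP17, with the synonym RDB1, ranged only from 2.5 to 15.1 units, and its log2 changes were 0.15 ± 0.15 in FL478 (adjusted p = 0.835) and -0.07 ± 0.16 in IR29 (adjusted p = 1.00).

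Arrays that do not overlap are common with groups this small. Within FL478 0 of the 5 members separated, against 14% of all probe sets in either direction. Within FL478 pairs of the same replicate number, salt was above control in all 3 pairs for 3 of the 5, as for 16.2% of all probe sets. The log2 differences of pairs 1, 2 and 3 were 1.14, 0.15 and 0.63 for BURP3, 0.02, 0.16 and 0.41 for BURP12, and 0.06, 0.06 and 0.33 for BURP17. With replicate number as a block over all arrays, IR29 included, none of the 5 was called in limma. The adjusted p was 0.448 for BURP3 and 0.805 for both BURP12 and BURP17. In IR29, with 3 salt and 2 control arrays, BURP12 and BURP3 were higher on all salt arrays, as 10.5% of all probe sets were, and BURP17 was lower on all of them, as 10.9% were.

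**Figure D4:**
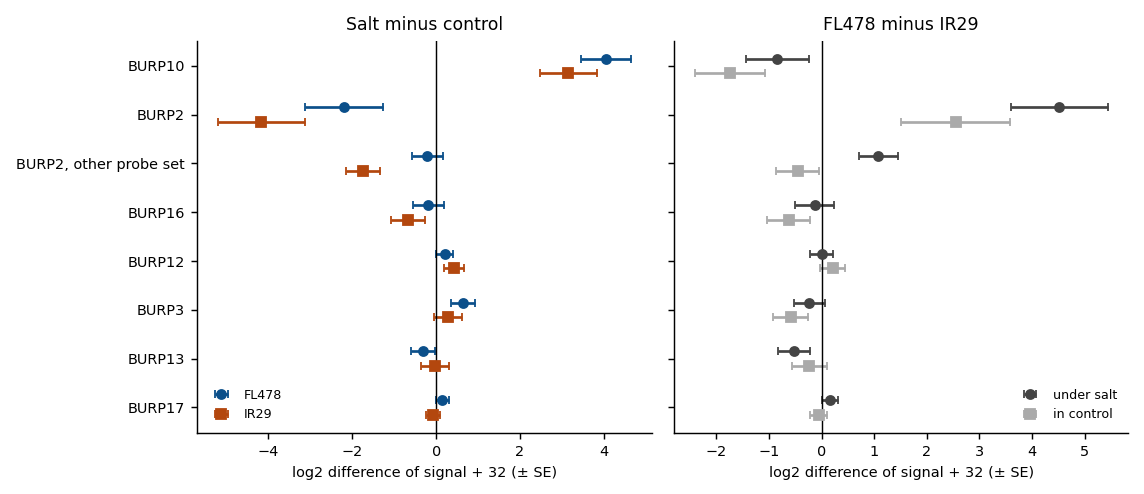
Log2 differences of signal + 32 for each BURP probe set with their SE from the fit. Left, salt minus control in FL478 and IR29. Right, FL478 minus IR29 under salt and in control. BURP10 and BURP2 are at 4.05 and -2.20 for salt in FL478 and at -0.84 and 4.52 for genotype under salt, the dimmer BURP2 probe set lies at -1.74 for salt in IR29, and the other 5 genes lie between -0.67 and 0.64.

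The genotypes were also compared at the same treatment. Under salt 1 of the 7 genes was called, against 1.75% of all probe sets. This was BURP2, and the members taken in by name alone were not called. BURP2 was higher in FL478, at 6503.0, 792.2 and 1924.6 units, than in IR29, at 119.1, 28.5 and 64.4 units, with no overlap between them. The log2 difference was 4.52 ± 0.92 (± SE, adjusted p = 0.0560, limma), with a 95% interval of 2.46 to 6.57. BURP2 was picked for its response in these same salt arrays, so neither this p nor the count of 1 is independent of the choice. The call was made in 13 of 19 alternative settings, over which the adjusted p ran from 0.0188 to 0.176 and the difference from 3.73 to 5.22. It was lost with values under 32 set to 32 (adjusted p = 0.114) and without FL478 salt array 1 (0.158) or 3 (0.152) or IR29 salt array 1 (0.138), 2 (0.121) or 3 (0.176).

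The dimmer BURP2 probe set was higher in FL478 salt arrays too, by 1.08 ± 0.37 (± SE, adjusted p = 0.272, limma). It was called with replicate number as a block (adjusted p = 0.0662) and without FL478 salt array 2 (adjusted p = 0.0939). That block ties same-numbered arrays of both genotypes, which were not taken to pair. BURP10 differed by -0.84 ± 0.60 (adjusted p = 0.676) and BURP13 by -0.52 ± 0.30 (adjusted p = 0.573), both lower in FL478 by point estimate. The p of BURP10 and those of the dimmer BURP2 probe set are likewise not independent of the choice of these 2 genes. BURP16, BURP12, BURP3 and BURP17 lay between -0.23 and 0.16. FL478 and IR29 salt arrays did not overlap for BURP2 and BURP17, which were higher in FL478 as 7.86% of all probe sets were, and for BURP13, lower in FL478 as 7.71% were.

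In control plants 0 of the 7 genes were called, against 0.597% of all probe sets, and 2 had an unadjusted p under 0.05, against 7.92% of all. These were BURP2, at 2.55 ± 1.03 with FL478 above IR29 (± SE, unadjusted p = 0.0332, adjusted p = 0.558, limma), and BURP10, at -1.74 ± 0.67 (unadjusted p = 0.0267, adjusted p = 0.514). Both share control arrays with the contrast that chose them, so these p and the count of 2 are not independent of the choice either. For BURP2 every FL478 control array was above both IR29 control arrays, as for 11.3% of all probe sets. The lowest FL478 array, at 6935.6 units, was close to the higher IR29 array, at 5951.0, and the difference was 0.75 without the second IR29 control array. BURP10, BURP16 and BURP3 were lower on all FL478 control arrays, as 12.5% of all probe sets were. BURP10 was at 7.9, 5.7 and 109.2 units in FL478, against 173.4 and 161.8 in IR29. The log2 difference of BURP16 was -0.62 ± 0.41 (± SE, adjusted p = 0.800) and that of BURP3 was -0.59 ± 0.33 (adjusted p = 0.743).

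Apart from the members, 2154 named genes above the median level were ranked by Pearson's r of log2(signal + 32) with each of the pair over the 11 arrays. The arrays share treatment and genotype, so r is given as a description. BURP10 was followed most closely by DAPDC (r = 0.91), a diaminopimelate decarboxylase of lysine synthesis, gid1 (0.90), the gibberellin receptor, and PES (0.88). OsPP2C26 (0.865), a protein phosphatase of type 2C, and AtbHLH004 (0.86), a basic helix-loop-helix factor, came next. All 5 ran in parallel with BURP10 over a far smaller range. gid1 averaged 3890 units in FL478 salt and 2853 in FL478 control arrays, and 3925 in IR29 salt and 3012 in IR29 control arrays.

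BURP2 was most like OsSWEET4 (r = 0.95), a sugar transporter, then OsPK1 (0.92), SAT1 (0.92), APG4B (0.92), named for an autophagy protease, and IRT2 (0.91), an iron transporter. IRT2 came nearest to the range of BURP2, averaging 6425 units in FL478 salt and 14617 in FL478 control arrays, and 101 in IR29 salt and 2963 in IR29 control arrays. OsSWEET4 averaged 5003 units in FL478 salt and 7703 in FL478 control arrays, and 2350 in IR29 salt and 5325 in IR29 control arrays.

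**Figure D5:**
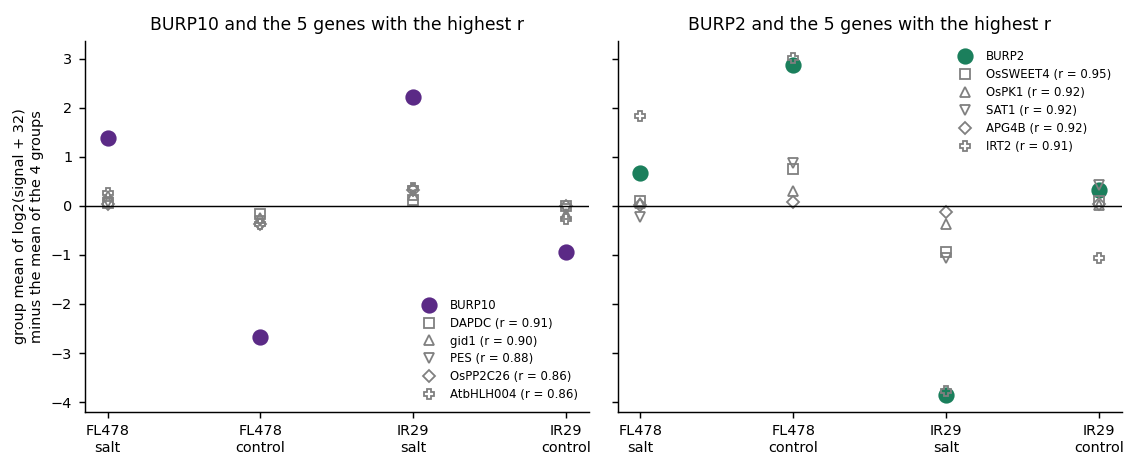
Group means of log2(signal + 32), each gene centred on the mean of its 4 groups, for BURP10 (left) and BURP2 (right) with the 5 genes of highest Pearson's r over 11 arrays. The genes like BURP10 keep near 0 while BURP10 spans several log2 units, and IRT2 spans about as much as BURP2.

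Pectin and dehydration genes give the setting in which these members are usually discussed. Of 8 pectin genes found by symbol, 7 had a probe set, although PGL1 was matched by its letters and may not be a pectin gene. In FL478 all 7 had a positive salt change, with a median of 0.28, where 50.1% of all probe sets were positive. OsPL10a and OsPAE1 were near 0, at 0.08 ± 0.21 and 0.01 ± 0.15 (± SE). In FL478 0 of the 7 were called, against 0.169% of all probe sets. The largest changes were OsPMEI8, a pectin methylesterase inhibitor, at 1.096 ± 0.28 (± SE, adjusted p = 0.241, limma), and PGIP-1, a polygalacturonase-inhibiting protein, at 0.85 ± 0.27 (adjusted p = 0.352). OsPMEI8 was dim, averaging 52.3 units in FL478 salt and 7.13 in FL478 control arrays, where the offset limits the reading. In IR29 3 were positive and 4 negative, with a median of -0.08, where 50.4% of all probe sets were positive. There 0 were called, against 0.00524% of all.

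Of 9 ABA and dehydration genes, 8 had a probe set. In either genotype 0 were called, where 0.169% of all probe sets were in FL478 and 0.00524% in IR29. In FL478 5 had a positive and 3 a negative salt change, with a median of 0.16, where 50.1% of all were positive. In IR29 3 were positive and 5 negative, with a median of -0.07, where 50.4% of all were positive. The extremes in FL478 were RAB21, a dehydrin, at 1.54 ± 0.33 (± SE, adjusted p = 0.176, limma), and salT, a salt-induced lectin, at -1.04 ± 0.24 (adjusted p = 0.204). In IR29 RAB21 stood at 0.05 ± 0.37 and salT at -0.17 ± 0.27 (adjusted p = 1.00 and 0.995). The changes of BURP10 and of the brighter BURP2 probe set lay outside the range of both lists in each genotype. Both genes were chosen by their salt changes, so this is a description and nothing is read from it. The dimmer BURP2 probe set, at -0.21 in FL478, lay within the range of the ABA and dehydration list there.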

How the data were processed

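RNA from the root tips of FL478 and IR29 was measured on 11 Affymetrix rice arrays. The authors deposited linear signal intensities from GCOS, whose version is not given in the sources used here. These are scaled to a common 2% trimmed mean, and are neither log-transformed nor quantile-normalized. The number of arrays limits the precision, and array signals carry no read depth. Detection calls were not used. Groups were taken from the sample labels.

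The table held 57381 probe sets, of which 123 were array controls and were set aside. Values were taken to log2(signal + 32), and 1 mean per group was fitted in limma 3.58.1 (R 4.3.3) to all 11 arrays, with 7 residual and 3 prior degrees of freedom. The Benjamini-Hochberg adjustment ran over 57258 probe sets, with calls at an adjusted p under 0.10, the study's false discovery rate. The study ran its tests on RMA values, which were not used here. Tables and figures were made with Python 3.11.15, pandas 2.3.3, numpy 2.4.6 and matplotlib 3.10.9.

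Probe sets were named from the platform annotation, updated through RefSeq, and 22436 named 1 gene. Where a gene had several, the one with the highest mean signal stood for it. The members, lists and tests were chosen with earlier results of these data known. The named genes are the members, the 5 named genes most like BURP10 and BURP2 above the median level, and members of lists matched by symbol. No sequence was read here.

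Replicate numbers were checked as pairs by the correlation of deviations from group means. In FL478 same-numbered salt and control arrays gave 0.33, 0.14 and 0.19 and other pairings -0.23 to 0.01, so the numbers were taken to pair them. In IR29 the same-numbered pairs gave -0.14 and 0.09, and across FL478 and IR29 salt arrays 0.25, 0.10 and 0.02, so they were not. The main fit did not use the FL478 pairing, so its SE, p and intervals are those of unpaired arrays. The replicate block was fitted over all arrays, with the same numbers in both genotypes. The alternatives were an offset of 64, a floor of 32, replicate number as a block, quantile normalization, an intensity trend with robust variance, a restriction to the brighter probe sets (above the median level), only the compared groups, the GAPDH ratio as a covariate, each array left out in turn, and the other BURP2 probe set. Differences within FL478 pairs were added after seeing the data.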

Additional observations from a re-analysis of the deposited data

Results flagged for a closer look

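BURP17 was marked because each FL478 salt array lay above the mean of its control arrays and each IR29 salt array below. Its log2 change under salt came to 0.15 ± 0.15 for FL478 and -0.07 ± 0.16 for IR29 (± SE). The difference, FL478 minus IR29, was 0.22 ± 0.22, and the interaction test did not call it (adjusted p = 1.00, limma). All 11 arrays of BURP17 were under 32 units. Groups held 2 or 3 arrays, so no array was tested for lying apart from the rest of its group.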

How the results depend on the processing

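The number of probe sets called moved with the settings. For salt in FL478, 97 were called, against 171 with an offset of 64, 220 above the median level only, 256 with an intensity trend, 1 with only the compared groups and 0 with the GAPDH ratio as covariate. For salt in IR29, 3 were called, against 80 with a floor of 32, 25 with an intensity trend, and 0 with only the compared groups or the GAPDH ratio. Averaged over genotypes, 313 were called, against 470 with an offset of 64, 490 with the floor, 653 above the median level, 626 with a trend and 0 with the GAPDH ratio. The interaction called 0, against 41 with the floor and 3 above the median level. The genotype difference called 342 in control and 1000 under salt, against 141 and 570 with only the compared groups. Leaving out each array in turn gave 1 to 86 for salt in FL478, 0 to 49 in IR29, 9 to 232 averaged, 0 to 18 for the interaction, and 86 to 527 in control and 432 to 1375 under salt for genotype. The cause of these shifts was not tested, beyond the fewer arrays or probe sets that some settings use.

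With the replicate block, 0 probe sets were called for salt in IR29 and 498 averaged over genotypes. The block changed no call of a BURP gene but for the dimmer BURP2 probe set under salt, called at an adjusted p = 0.0662. The block ties arrays across genotypes, where the replicate numbers were not taken to pair.

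The count of tested BURP genes called stayed at 0 under each setting run, except for the genotype difference under salt, where it was 1, but 0 with the floor, and 0 to 1 when each array was left out. BURP10 kept its sign in 19 of 19 alternatives, at 3.43 to 4.90 in FL478 and 2.82 to 4.15 in IR29, and so did the brighter BURP2 probe set, at -2.99 to -1.50 and -5.96 to -2.38, while the dimmer one gave -0.21 and -1.74. The difference between genotypes in the salt change of BURP2 ran from 0.18 to 3.76. BURP16 in FL478 ran from -0.70 to 0.02 and BURP3 in IR29 from -0.12 to 0.39, both with a change of sign. BURP3, BURP13 and BURP17 gave no value above the median level only, and fitting only the compared groups is the same fit for the averaged change and the interaction. Signals under 32 units limit what can be seen of these 3 genes.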
